A study of Mus musculus with 6 samples.

Results

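Expression of 10 genes for enzymes that build, cap or sulfate the glycans of mucins and glycolipids was described in sorted stomach fibroblasts, from 3 libraries of mice in which gastric cancer was induced (CAF) and 3 of control mice (normal). The genes were B3gnt5, B4galt4, Gal3st1, C1galt1, Gcnt1, Gcnt3, A4gnt, Fut2, St6galnac2 and St3gal4, found by symbol, and all 10 were among the 14228 genes of the table. Of these, 9 encode glycosyltransferases and Gal3st1 encodes a sulfotransferase. Both groups were 8-week-old triple-transgenic iLgr5;GLI2A mice, a model in which an active GLI2 can be switched on in Lgr5-expressing stem cells. The CAF mice were gavaged with tamoxifen on 5 days and ate doxycycline chow over the next 3 weeks, with the drug also in their water on the first 3 days. The normal mice, of the same genotype, had corn oil and neither drug, so drugs and cancer cannot be told apart. CAF libraries 1, 2 and 3 held cells of 1, 2 and 2 mice, and normal libraries 1, 2 and 3 held cells of 1, 1 and 2 mice. The cells were sorted as live and podoplanin-positive after removal of cells that carried CD31, CD45 or EpCAM, and RNA 3′ ends were counted by MARS-seq, a method that reads the ends of polyadenylated transcripts.

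Mucins are secreted or membrane proteins covered with sugar chains that start with GalNAc on serine or threonine, and are then built up into cores, extended, and capped with sialic acid, fucose or GlcNAc. Gastric pit cells make Muc5ac and neck and deep gland cells make Muc6, and the caps on their chains differ. Glycosphingolipids carry their chains on ceramide, and the enzyme that acts first after lactosylceramide decides which series of lipid is made.

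The libraries held 644522 to 6422568 counts in CAF and 768420 to 3259644 in normal. Levels are counts per 1000000 counts of a library size scaled by the trimmed mean of M-values (CPM), and 1 count was worth 0.135 to 1.46 CPM in CAF and 0.408 to 1.27 CPM in normal libraries. Transcripts of gastric pit, neck, chief, parietal and enteroendocrine cells (28 of 34 listed genes in the table) made up 0.610%, 0.869% and 0.642% of all counts of CAF libraries 1, 2 and 3, against 20.2%, 16.5% and 4.19% in normal libraries 1, 2 and 3 (the widest 95% exact binomial interval was 16.5% to 16.6%, in normal library 2; such intervals cover counting error only). The fibroblast list (13 genes) summed to 11803, 30086 and 35954 CPM in the CAF libraries, against 6166, 11850 and 15512 CPM in the normal libraries. Epcam, which encodes the surface protein used to remove epithelial cells, stood at 233, 127 and 114 CPM in the CAF libraries and at 150, 78.5 and 13.8 CPM in the normal libraries. Its RNA was thus present in both groups, and which cells it came from was not tested. Ptprc, which encodes CD45, had 0, 5.52 and 1.35 CPM in the CAF libraries and 0, 3.80 and 0 CPM in the normal libraries.

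Promoter sequences are shown for both genes that were highest in CAF against normal and for 2 that were low there. They are the 250 bases before an annotated transcript start, from RefSeq on build GRCm38.p6, all on the plus strand, 5′ to 3′, with capitals where a script found any of the 8 motifs named after them. RefSeq's table matched 7 of the 10 genes; St6galnac2, Fut2 and Gcnt3 are named only. The windows are chr16:19759984-19760233 for B3gnt5, chr16:38742009-38742258 for B4galt4, chr11:3983386-3983635 for Gal3st1 (the first of its 3 annotated starts) and chr9:99612252-99612501 for A4gnt.
B3gnt5: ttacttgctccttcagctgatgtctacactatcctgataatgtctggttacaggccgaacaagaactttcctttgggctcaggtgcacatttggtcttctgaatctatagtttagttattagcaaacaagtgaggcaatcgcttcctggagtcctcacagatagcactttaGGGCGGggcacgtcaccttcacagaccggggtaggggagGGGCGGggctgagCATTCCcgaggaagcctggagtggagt
B4galt4: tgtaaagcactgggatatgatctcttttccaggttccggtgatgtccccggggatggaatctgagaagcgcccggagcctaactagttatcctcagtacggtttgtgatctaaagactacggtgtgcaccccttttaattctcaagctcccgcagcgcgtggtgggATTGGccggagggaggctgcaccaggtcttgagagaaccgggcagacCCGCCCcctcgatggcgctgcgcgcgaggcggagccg
Gal3st1: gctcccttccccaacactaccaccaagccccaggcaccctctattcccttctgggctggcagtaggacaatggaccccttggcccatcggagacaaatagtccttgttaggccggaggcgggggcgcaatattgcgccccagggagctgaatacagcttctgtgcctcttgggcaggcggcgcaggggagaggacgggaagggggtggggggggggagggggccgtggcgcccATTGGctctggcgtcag
A4gnt: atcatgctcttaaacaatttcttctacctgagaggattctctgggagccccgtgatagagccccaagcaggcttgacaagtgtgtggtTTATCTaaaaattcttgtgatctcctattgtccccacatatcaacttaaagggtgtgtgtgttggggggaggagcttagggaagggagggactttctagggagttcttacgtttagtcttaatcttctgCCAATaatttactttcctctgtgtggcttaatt

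The motifs searched on both strands were the TATA box as TATAAA, the GC box as GGGCGG, the CCAAT box as CCAAT, the AP-1 site as TGANTCA, the GLI site as GACCACCCA, the GATA-factor site as AGATAA, a heat shock element as TTCNNGAA and the TEAD site as GGAATG. The windows of B3gnt5 and B4galt4 reach past the first base of the gene positions given below, and that of A4gnt lies inside its gene. For B3gnt5 the TEAD site and 1 GC box, and for B4galt4 the GC box, thus lie within the gene position. The GC box was found 2 times in the window of B3gnt5 and 1 time in that of B4galt4. It was not found in the printed windows of Gal3st1 and A4gnt, and 32.7% of all 32817 promoter windows of this length held it. The CCAAT box was found 1 time each in the printed windows of B4galt4, Gal3st1 and A4gnt (33.8% of all windows). The TEAD site was found 1 time in that of B3gnt5 (12.6%) and the GATA-factor site 1 time in that of A4gnt (9.99%). The window of A4gnt had a GC content of 43.6%, against 51.2% for B3gnt5, 59.2% for B4galt4 and 65.6% for Gal3st1; the median of all windows was 52.4%. The GLI site was found in 0 of the windows of the 7 matched genes (0.225% of all windows), and of these genes only C1galt1 had the heat shock element (7.16%). The TATA box, held by 12.4% of all windows, was found only for Gcnt1, and the AP-1 site, held by 6.75%, for none of the 7. The matches do not overlap each other in the printed windows and describe letters, not binding.

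The genes were selected on their levels in the CAF and normal libraries, the same contrast that is given here, so the values of that contrast describe them and test nothing. Counts were fitted by edgeR's quasi-likelihood method over all 10148 genes that passed its filter on low counts, with Benjamini-Hochberg adjustment, and a gene is said to be called at an adjusted p under 0.05. Of the 10 genes, 7 passed the filter, and A4gnt, Gcnt1 and C1galt1 did not. Called were 4 genes, B3gnt5 and B4galt4 as higher and St6galnac2 and Gal3st1 as lower in CAF; over all genes tested 1.10% were called, 0.897% higher and 0.207% lower. Gal3st1 lay just inside the threshold (adjusted p = 0.0432 by edgeR) and Fut2 just outside it (0.0764). In CPM, 3 of the 10 genes had all CAF libraries above all normal libraries (10.4% of the table's genes and 10.6% of those tested), 3 had all CAF libraries below all normal libraries (8.55% and 9.35%), and 4 overlapped. In the authors' deposited table an adjusted p under 0.05 is given for 7 of the 10, 2 higher and 5 lower in CAF, with Fut2, Gcnt3 and A4gnt beside the 4 genes above; it is given there for 6.37% of all genes, 2.76% higher and 3.61% lower. DESeq2, which the submitters also list among their tools, called the same number of the 10 genes, 7, where it called 6.58% of all genes. Its log2 fold change of B3gnt5 was 6.74, as in the deposited table, so the match in number adds no independent support.

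**Figure D1:**
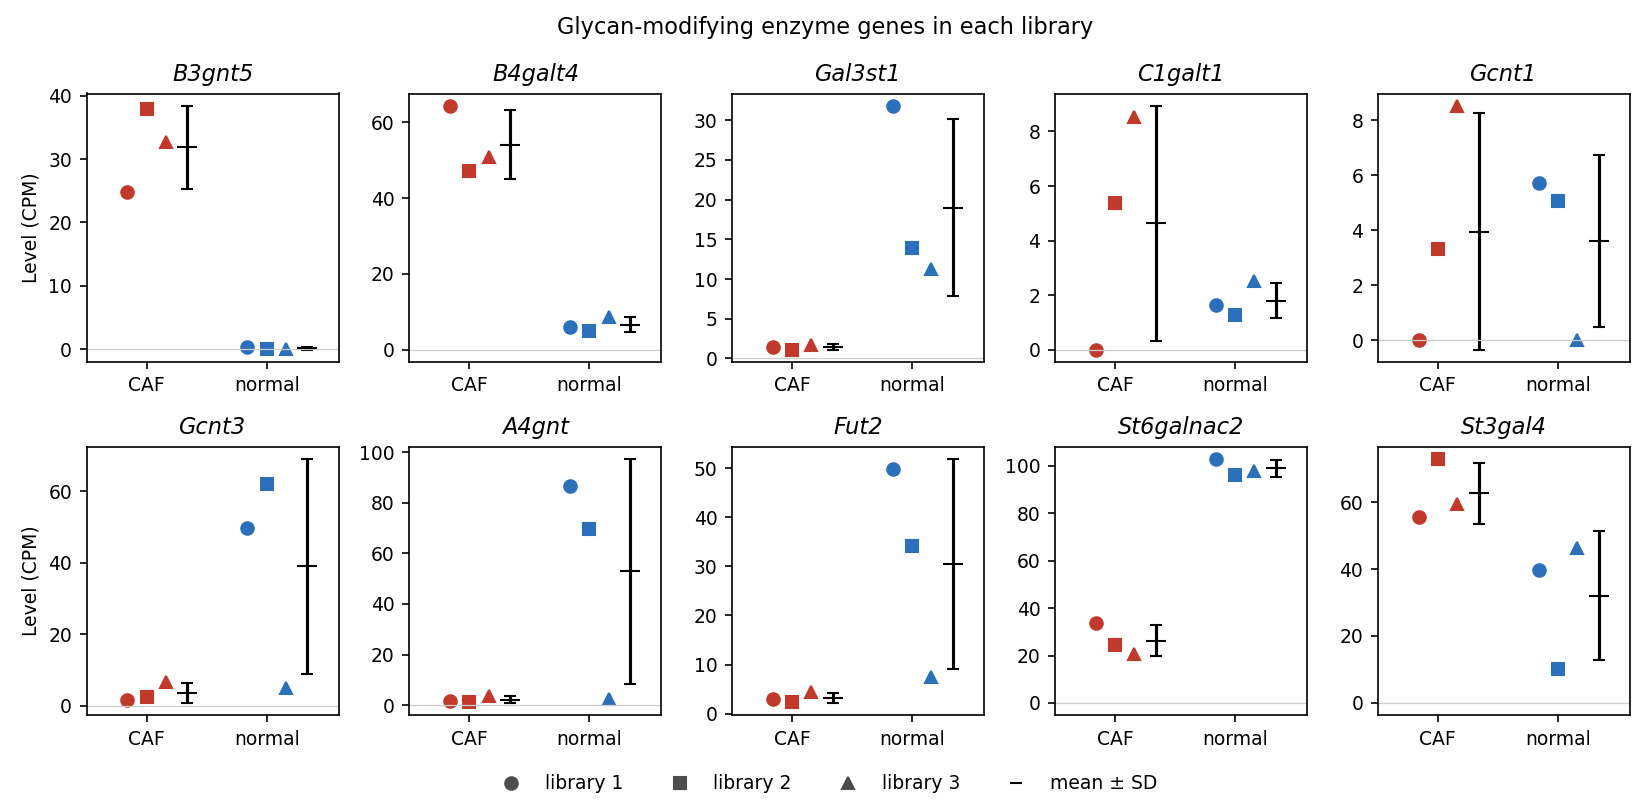
Level in CPM (vertical axis, its own scale in each panel) of each enzyme gene in the 3 CAF and 3 normal libraries; symbols mark libraries 1 to 3 and bars show mean ± SD. B3gnt5 and B4galt4 are high in every CAF library, St6galnac2 is high and even in the normal libraries, and A4gnt, Gcnt3 and Fut2 are high in normal libraries 1 and 2 but not in normal library 3.

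Among the glycolipid enzymes, B3gnt5 and B4galt4 were high in CAF and Gal3st1 was high in normal libraries. B3gnt5 (chromosome 16, 19760192 to 19772760) transfers GlcNAc to lactosylceramide, the step that opens the lacto and neolacto series. It had 24.9, 38.0 and 32.7 CPM in CAF libraries 1, 2 and 3, against 0.408, 0 and 0 CPM in normal libraries 1, 2 and 3. That is 534 counts over the CAF libraries and 1 count over the normal libraries, and the groups did not overlap. The pooled rate ratio was 141 (95% exact counting interval 25.2 to 5571), and the fit's log2 value of 6.86 ± 0.71 (SE; edgeR adjusted p = 0.0124) rests on that single count. With 0 counts, normal libraries 2 and 3 could each hold up to 3.80 and 3.75 CPM (3 counts), below the lowest CAF library.

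B4galt4 (chromosome 16, 38742220 to 38769054) is a galactosyltransferase that extends GlcNAc-ended chains, those of lacto-series glycolipids and sulfated chains among them. It had 64.4, 47.2 and 50.7 CPM in CAF libraries 1, 2 and 3, against 6.12, 5.07 and 8.75 CPM in normal libraries 1, 2 and 3. Every CAF library was above every normal library, and the spread within each group was small, with means of 54.1 ± 9.07 CPM for CAF and 6.65 ± 1.90 CPM for normal (SD, n = 3 each). The fitted fold was 8.13 (log2 3.02 ± 0.39 SE, adjusted p = 0.0201 by edgeR).

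Gal3st1 (chromosome 11, 3983636 to 3999328) sulfates galactosylceramide to sulfatide, a lipid of myelin, kidney and gut epithelium. It had 1.46, 1.10 and 1.76 CPM in CAF libraries 1, 2 and 3, against 31.8, 13.9 and 11.3 CPM in normal libraries 1, 2 and 3. The CAF libraries lay close together and below all normal libraries, on 22 counts in all against 98 counts in normal. By the fit it was 13.3-fold lower in CAF (log2 -3.74 ± 0.63 SE, adjusted p = 0.0432 by edgeR).

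B3gnt5 and B4galt4 were also described by their share in the counts of their gene families, a reading that needs no scaling of libraries. The shares use the same counts on which the genes were selected, so they add no independent support. B4galt4 took 11.7%, 12.0% and 12.6% of the counts of B4galt1 to B4galt6 in CAF libraries 1, 2 and 3, against 2.37%, 2.70% and 3.11% in normal libraries 1, 2 and 3. The lowest-reaching exact binomial 95% interval among the CAF libraries was 8.61% to 15.3%, in library 1, and the highest-reaching one among the normal libraries was 0.741% to 6.78%, in library 2. B3gnt5 held 18.5%, 18.2% and 15.3% of the summed counts of 7 B3gnt genes in the CAF libraries, against 0.377%, 0% and 0% in the normal libraries. B3gnt3, which extends core 1 chains in mucosal tissue, held 6.52%, 6.17% and 4.93% in the CAF libraries, against 26.8%, 28.0% and 2.27% in the normal libraries, with normal library 3 apart from the other normal libraries.

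**Figure D2:**
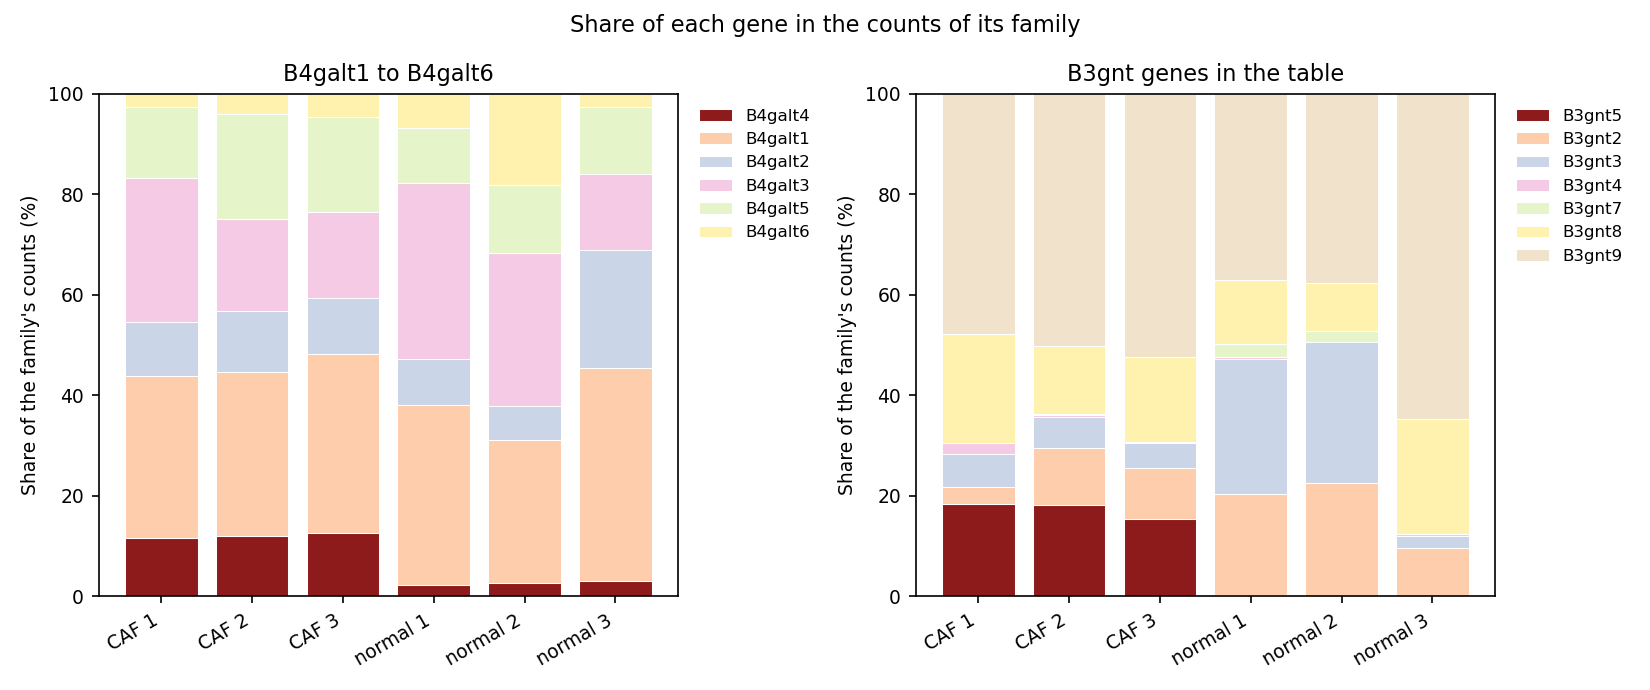
Share of each gene (vertical axis, %) in the summed counts of B4galt1 to B4galt6 (left) and of the 7 B3gnt genes in the table (right), by library. B4galt4 and B3gnt5, in dark red at the base of each bar, take 11.7% to 12.6% and 15.3% to 18.5% in the CAF libraries, and at most 3.11% and 0.377% in the normal libraries.

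Markers of other cells moved with B3gnt5 and B4galt4 in part. The general epithelial list (14 genes) summed to 4429, 1914 and 1830 CPM in the CAF libraries and to 6598, 3362 and 1263 CPM in the normal libraries, ranges that overlap; 1 of its 14 genes was called, the tight-junction gene Cldn3, which rose (log2 4.33 ± 0.44 SE, adjusted p = 0.0124 by edgeR). The list's median log2 fold change was -0.46, and of its genes that were not called the smallest p belonged to Krt19, a keratin of simple epithelium (log2 -2.03, adjusted p = 0.0647 by edgeR), and to the gastric tight-junction gene Cldn18 (log2 -3.71, adjusted p = 0.0667). Next by p were Cldn7 and Krt7, which went the other way (log2 2.88 and 3.68, adjusted p = 0.0841 and 0.0998 by edgeR). For both, every CAF library was above every normal library. Within CAF, library 1 had the highest B4galt4, the lowest B3gnt5, the highest epithelial sum and the lowest fibroblast sum. The glia and pericyte list (6 of 7 genes in the table) summed to 775, 497 and 291 CPM in the CAF libraries and 119, 105 and 310 CPM in the normal libraries, with S100b called as higher (adjusted p = 0.0247 by edgeR). The mesothelium list (7 of 8 genes in the table, 4 tested, 0 called by edgeR) had a median log2 fold change of 2.94. Its surface marker Msln had 5.85, 7.73 and 9.87 CPM in the CAF libraries, against 0, 1.27 and 1.25 CPM in the normal libraries (log2 3.76, adjusted p = 0.105 by edgeR), groups that did not overlap. The summed mesothelial level ran from 168 to 244 CPM in CAF and from 455 to 991 CPM in normal, mostly Krt19, which the epithelial list also holds; Wt1 and Gpm6a had 0 counts in CAF library 1, and Upk3b had 0 in all normal libraries. The part of these cells in the levels of B3gnt5 and B4galt4 was not tested. In bulk libraries, fewer cells of a type and less RNA per cell cannot be told apart.

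Of the enzymes that build O-glycan cores, Gcnt3 was high in 2 normal libraries, and C1galt1 and Gcnt1 were near the counting limit. C1galt1 (chromosome 6, 7845224 to 7872042) makes core 1, the base of most mucin-type chains. It had 0, 5.38 and 8.52 CPM in CAF libraries 1, 2 and 3, against 1.63, 1.27 and 2.50 CPM in normal libraries 1, 2 and 3. CAF libraries 2 and 3 stood above all normal libraries, but the 0 counts of CAF library 1 allow up to 4.39 CPM, and the groups overlapped. Gcnt1 (chromosome 19, 17326141 to 17372844), which makes core 2 branches in many tissues, had 0, 3.31 and 8.52 CPM in the CAF libraries and 5.71, 5.07 and 0 CPM in the normal libraries. Each group held 1 library without a count, and the means were 3.94 ± 4.30 CPM for CAF and 3.59 ± 3.13 CPM for normal (SD, n = 3 each), so no difference was detectable at this depth. Without the filter on low counts the fitted log2 fold changes were 1.59 for C1galt1 and 0.26 for Gcnt1 (adjusted p = 0.472 and 0.938 by edgeR).

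Gcnt3 (chromosome 9, 70031495 to 70039890) makes core 2 and core 4 branches in mucin-secreting epithelium. It had 1.46, 2.35 and 6.63 CPM in CAF libraries 1, 2 and 3, against 49.8, 62.1 and 5.00 CPM in normal libraries 1, 2 and 3. Normal library 3 lay within the range of the CAF libraries. The fit gave log2 -3.30 ± 0.90 (SE; edgeR adjusted p = 0.12), and -0.27 without normal libraries 1 and 2.

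The capping enzymes A4gnt and Fut2 showed the same split among the normal libraries. A4gnt (chromosome 9, 99591179 to 99622367) puts the terminal GlcNAc on the O-glycans of Muc6 in gastric gland mucous cells. It had 1.46, 1.38 and 3.65 CPM in CAF libraries 1, 2 and 3, against 86.5, 69.7 and 2.50 CPM in normal libraries 1, 2 and 3. Normal library 3 held 2 counts, within the CAF range, while normal libraries 1 and 2 held 212 and 55. The CAF mean was 24.4-fold lower than the mean of all normal libraries and 1.16-fold lower than normal library 3 alone. Without the filter on low counts its fitted log2 fold change was -4.46 (adjusted p = 0.0794 by edgeR), and the authors' deposited table gives -4.56 with an adjusted p of 0.000875.

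Fut2 (chromosome 7, 45648591 to 45666394) adds the fucose of the H antigen to mucosal glycans. It had 2.93, 2.35 and 4.33 CPM in CAF libraries 1, 2 and 3, against 49.8, 34.2 and 7.50 CPM in normal libraries 1, 2 and 3. All normal libraries were above all CAF libraries, but normal library 3, with 6 counts, was close to them. The fit gave log2 -3.24 ± 0.72 (SE; edgeR adjusted p = 0.0764), or -1.12 without normal libraries 1 and 2.

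The sialyltransferases behaved differently from each other. St6galnac2 (chromosome 11, 116676703 to 116695782) adds sialic acid to the GalNAc at the base of mucin-type chains. It had 33.7, 24.6 and 20.7 CPM in CAF libraries 1, 2 and 3, against 102.8, 96.3 and 97.5 CPM in normal libraries 1, 2 and 3. The means were 26.3 ± 6.65 CPM for CAF and 98.9 ± 3.48 CPM for normal (SD, n = 3 each), with no overlap, and the normal libraries lay close together. The pit-cell gene Tff1 had 506, 2891 and 1032 CPM in CAF libraries 1, 2 and 3, against 14945, 9393 and 14842 CPM in normal libraries 1, 2 and 3. Tff1 was about as even in normal libraries 1 and 3, but lower in normal library 2. The pit-cell genes Muc5ac (310, 134 and 161 CPM in normal libraries 1, 2 and 3) and Mucl3 (916, 395 and 548 CPM) were less even. The part of pit cells in the level of St6galnac2 was not tested. By the fit it was 3.84-fold lower in CAF (log2 -1.94 ± 0.31 SE, adjusted p = 0.0393 by edgeR), and the log2 value was -1.87 against normal library 3 alone. In the GENCODE annotation of mm10 a further, shorter gene of the same name and a non-coding gene on the other strand overlap it, so reads of these may be mixed. The annotation also lists overlapping genes for B4galt4, St3gal4 and C1galt1.

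St3gal4 (chromosome 9, 35046576 to 35116864) caps lactosamine chains with sialic acid, as on selectin ligands. It had 55.6, 72.9 and 59.4 CPM in CAF libraries 1, 2 and 3, against 39.6, 10.1 and 46.3 CPM in normal libraries 1, 2 and 3. The groups did not overlap, but CAF library 1 and normal library 3 lay close together, and normal library 2 was well below the other normal libraries. The fit gave log2 0.96 ± 0.51 (SE; edgeR adjusted p = 0.442).

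Within the normal group the enzymes could be set beside the gland transcripts without use of the CAF libraries. The level in normal library 3 was 2.89% of that in normal library 1 for A4gnt, 10.0% for Gcnt3, 15.1% for Fut2 and 35.4% for Gal3st1. These values rest on only 2, 4, 6 and 9 counts in normal library 3. The level was 94.9% for St6galnac2, 117% for St3gal4 and 143% for B4galt4, and 153% for C1galt1, on 2 counts in normal library 3 and 4 in normal library 1. Over the same 2 libraries the summed level of gastric pit and neck genes was 46.9%, of chief cell genes 6.50%, of parietal cell genes 3.83% and of enteroendocrine genes 2.20%, and that of the fibroblast list was 252%. The squamous forestomach list (9 of 11 genes in the table) stood at 8.46% and the general epithelial list at 19.1%, so low values were not limited to gland lists. Gcnt3 and Fut2 lay between these 2 lists. A4gnt thus stood beside the deep gland lists, and also beside its substrate Muc6, at 1.98%. The pit and neck list was itself uneven. The neck genes Muc6, Gkn3 and Tff2 stood at 1.98%, 2.64% and 7.05%, while the pit genes Tff1, Gkn2 and Gkn1 stood at 99.3%, 113% and 121%. The pit genes Mucl3 and Muc5ac lay between, at 59.8% and 52.1%, and Ctse and Psca of the same list stood at 16.8% and 13.8%. St6galnac2 and St3gal4 were thus at the level of Tff1, Gkn2 and Gkn1 but not of the list's other genes. B4galt4 was between Gkn1 and the fibroblast list. These ratios compare 2 libraries and have no replicate.

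**Figure D3:**
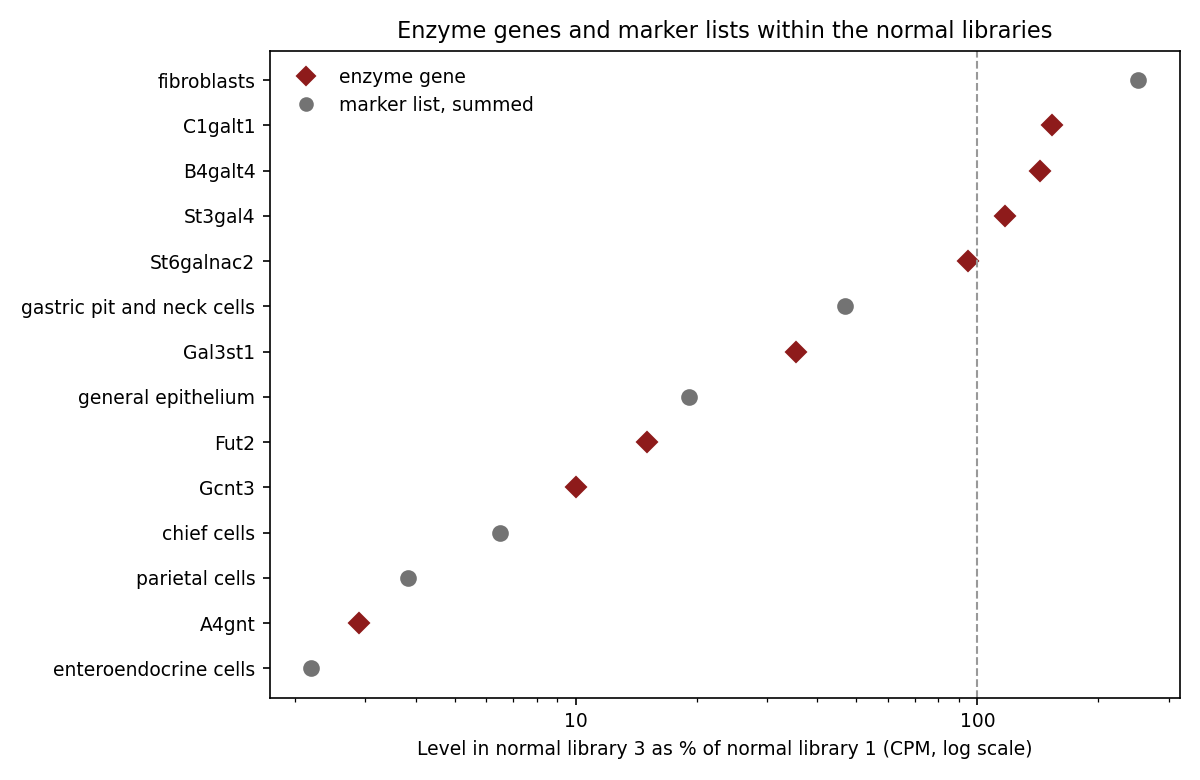
Level in normal library 3 as a percentage of that in normal library 1 (horizontal axis, log scale) for enzyme genes (diamonds) and summed marker lists (circles); the dashed line marks equal levels. A4gnt at 2.89%, Gcnt3 at 10.0% and Fut2 at 15.1% lie within the range of the gland lists and below the general epithelial list at 19.1%. St6galnac2 at 94.9% lies near the line. B3gnt5 and Gcnt1, with 0 counts in normal library 3, are not drawn.

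Beside the lower level of A4gnt, Gcnt3, Fut2, Gal3st1 and St6galnac2 in CAF, the gland genes were lower too: the pit and neck list summed to 1590, 5894 and 3968 CPM in CAF libraries 1, 2 and 3, against 57811, 45586 and 27126 CPM in normal libraries 1, 2 and 3. Its median log2 fold change was -3.40. Of its 11 tested genes, 2 were called as lower (Mucl3 and Psca) and 0 as higher, against 0.207% and 0.897% of all genes tested. The chief cell list summed to 3860, 1698 and 1102 CPM in the CAF libraries and 192244, 123523 and 12495 CPM in the normal libraries, with 0 of 4 tested genes called. Lower levels were not limited to gland genes. The squamous forestomach list summed to 81.9, 86.9 and 105 CPM in the CAF libraries and 1906, 2912 and 161 CPM in the normal libraries. Its median log2 fold change was -4.65. Of its 7 tested genes, 2 were called as lower (Krt1 and Mt4) and 0 as higher. Of the 28 gland genes Cym, Kcne2 and Slc9a4 had 0 counts in CAF library 1, Cym and Bhlha15 had 0 in normal library 3, Cym had 0 in normal library 2, and Iapp had 0 in all normal libraries. The part of gland or forestomach cells in the levels of these enzymes was not tested.

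Enzyme counts were also read per 1000 counts of a gastric mucin within each library, which needs no scaling. For A4gnt this was 14.7, 9.65 and 19.1 per 1000 Muc6 counts in CAF libraries 1, 2 and 3, against 24.9, 25.0 and 36.4 in normal libraries 1, 2 and 3. All CAF values were below all normal values, but A4gnt had only 1 count in CAF library 1 and 2 in normal library 3. The exact 95% intervals of CAF libraries 1 and 3 (0.367 to 84.7 and 12.5 to 27.9) overlapped those of all normal libraries (21.6 to 28.6, 18.8 to 32.7 and 4.30 to 138), and that of CAF library 2 (4.61 to 17.8) lay below those of normal libraries 1 and 2. For Gcnt3 the values were 14.7, 16.4 and 34.7 per 1000 Muc6 counts in the CAF libraries, against 14.3, 22.3 and 72.7 in the normal libraries, ranges that overlap. For Fut2 they were 200.0, 61.8 and 444 per 1000 Muc5ac counts in the CAF libraries, against 161, 255 and 46.5 in the normal libraries, which overlap as well.

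Other genes of glycan synthesis were taken from 10 lists, which held 134 genes beside the 10 described, 107 of them in the table and 70 tested. Of these 70, 0 were called as higher and 1 as lower, against 0.897% and 0.207% of all genes tested, while 35 had a positive and 35 a negative log2 fold change. The called gene was Mucl3, a mucin-like gene of pit cells. It had 24.9, 61.3 and 35.4 CPM in the CAF libraries and 916, 395 and 548 CPM in the normal libraries (log2 -3.91 ± 0.51 SE, adjusted p = 0.0216 by edgeR). Unadjusted p was under 0.05 for 20 of the 70, 8 higher and 12 lower in CAF; of all genes tested it was so for 15.3%, 7.37% higher and 7.97% lower. The median log2 fold change of the 70 was 0.01, and that of all genes tested was 0.06.

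The enzymes, transporters and donor-sugar genes among them, 60 without the mucins, had 0 called by edgeR, 11 at an unadjusted p under 0.05 and a median log2 fold change of 0.12. Of all genes tested, 1.10% were called by edgeR and 15.3% had an unadjusted p under 0.05. DESeq2 called 3 of the 90 such genes in the table, and 6.58% of all genes. B4galt5, a lactosylceramide synthase that makes the substrate of B3gnt5, had 77.5, 81.8 and 76.1 CPM in the CAF libraries and 28.6, 25.3 and 37.5 CPM in the normal libraries. The groups did not overlap (log2 1.37, edgeR adjusted p = 0.0749). Ugcg, the glucosylceramide synthase upstream of it, had 5.85, 66.1 and 45.04 CPM in the CAF libraries and 5.30, 27.9 and 1.25 CPM in the normal libraries, groups that overlap (adjusted p = 0.457 by edgeR; chosen after its values were seen). St3gal5, which makes the ganglioside GM3 from lactosylceramide, had 8.78, 15.7 and 16.6 CPM in the CAF libraries and 62.4, 77.3 and 21.3 CPM in the normal libraries (log2 -1.91, edgeR adjusted p = 0.121).

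By list, the 10 tested genes that start O-GalNAc chains had a median log2 fold change of 0.08, and the smallest p among them belonged to Galnt16 (log2 1.79, adjusted p = 0.174 by edgeR) and Galnt1 (1.61, adjusted p = 0.284). The 7 other lactosamine extension genes had a median of 0.34, with B4galt1 at 0.76 (adjusted p = 0.387) and B3gnt3 at -1.04 (adjusted p = 0.51). The 7 other sialyltransferases had a median of 0.32, with St3gal6 at -1.91 (adjusted p = 0.305) next after St3gal5. The 22 tested genes of nucleotide sugar supply had a median of -0.15, with the GDP-fucose transporter Slc35c1 at -1.59 (adjusted p = 0.121) and Gmds, the first enzyme of GDP-fucose synthesis, at -1.55 (adjusted p = 0.171). Both fucose-donor genes were lowest in normal library 3 among the normal libraries, at 35.0 and 57.5 CPM, against 90.6 and 222 CPM in normal library 1. The smaller lists had 2 tested genes each: Gcnt2 and C1galt1c1, the chaperone of C1galt1, at 0.87 and 0.32, Ggta1 and A4galt at 1.54 and 0.12, Fut8 and Fut10 at 0.37 and 0.33, and Chst1 and Chst7 at -1.52 and -0.65, all with adjusted p-values of 0.18 to 0.97 by edgeR. The 10 tested mucins and mucus proteins had a median of -3.19, where Muc5ac stood at -3.25 (adjusted p = 0.0576 by edgeR).

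**Figure D4:**
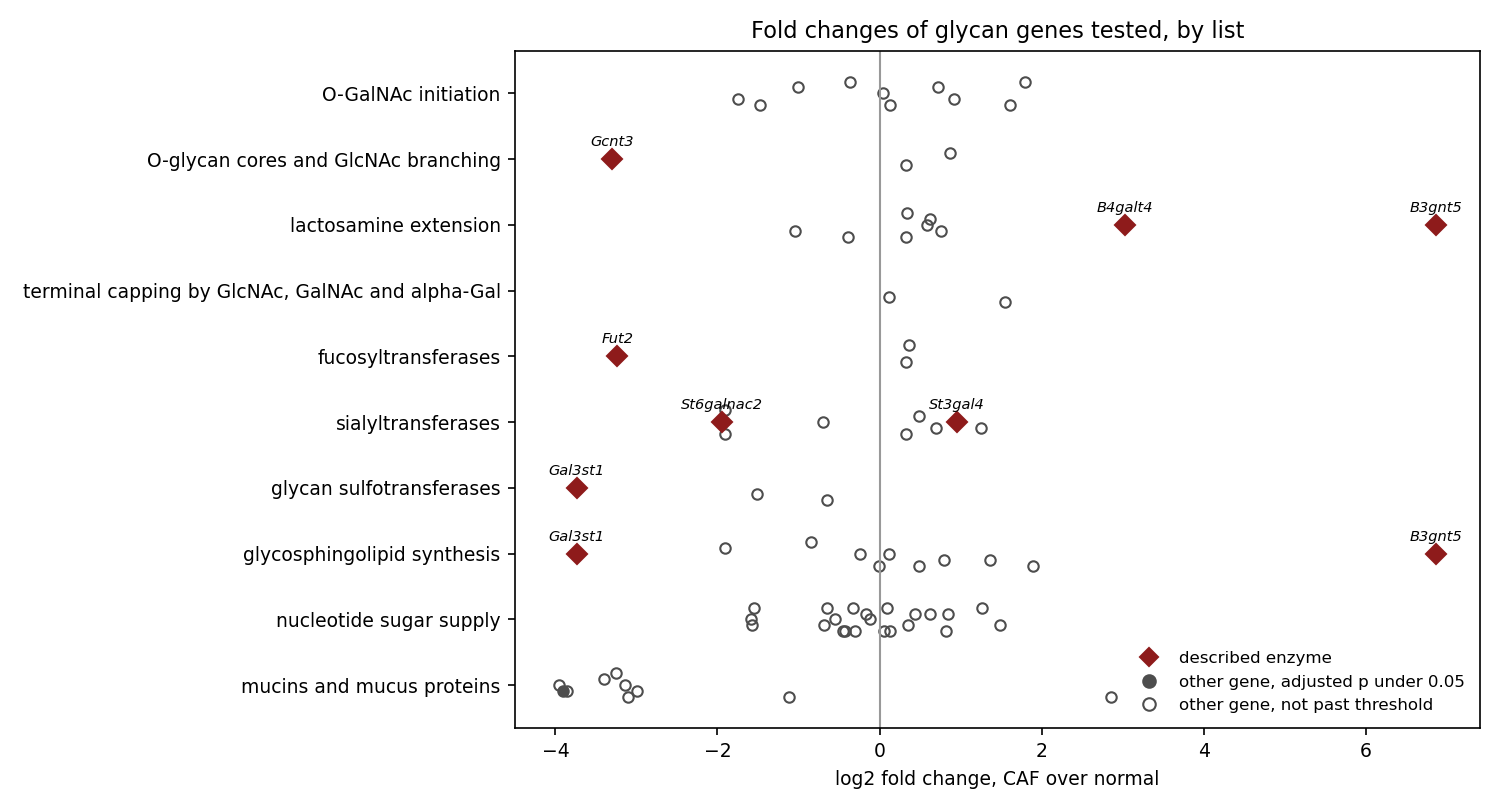
log2 fold change, CAF over normal (horizontal axis), of the tested genes of each glycan list; diamonds are the enzymes described and circles the other genes, filled where the adjusted p was under 0.05. B3gnt5 at 6.86 and B4galt4 at 3.02 lie to the right of the other extension genes, and the filled circle is Mucl3 at -3.91.

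The genes whose log2 CPM had the highest Pearson correlation over the 6 libraries with a called enzyme are given as a description. For B3gnt5 they were Pla2g3, Draxin and Chrdl2 (r = 0.996, 0.996 and 0.995), of which Pla2g3 and Draxin had 0 counts in all 3 normal libraries. For B4galt4 they were Ttc39c, Snx12 and Cldn6 (r = 0.998, 0.997 and 0.996), for St6galnac2 Wbp2, Ddrgk1 and Osgin1 (r = 0.995, 0.994 and 0.993), and for Gal3st1 Abcc3, Cln6 and Cyhr1 (r = 0.995, 0.99 and 0.988). The 6 points share group and depth, and a high r does not mean a like fold: Snx12 had 51.2, 49.8 and 50.6 CPM in the CAF libraries and 37.5, 38.0 and 40.02 CPM in the normal libraries, a much smaller difference than that of B4galt4.

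For the 7 tested enzymes no alternative that gave a value turned the direction round, but calls were lost. B3gnt5 and B4galt4 stayed called without CAF library 1 and without normal library 3. They lost the call without CAF library 2 (adjusted p = 0.0763 and 0.0791 by edgeR), CAF library 3 (0.0509 and 0.0727), normal library 1 (0.155 and 0.156) and normal library 2 (0.0565 and 0.0995). The fold of B3gnt5 ranged from 92.2 to 869 in these fits, the highest without normal library 1, which holds its only normal count, so that this value is fitted against 0 counts and depends on the fit's prior. That of B4galt4 ranged from 7.38 to 8.86. Gal3st1 was 8.72-fold to 16.7-fold lower in CAF, the least without normal library 1 and the most without normal library 3. St6galnac2 and Gal3st1 stayed called without normal library 3, where Fut2 and Gcnt3 became called too (adjusted p = 0.00782 and 0.0125 by edgeR). Without CAF library 1, 2 or 3 or normal library 1 or 2 St6galnac2 had adjusted p-values of 0.0539, 0.212, 0.147, 0.181 and 0.134, and Gal3st1 of 0.0909, 0.283, 0.176, 0.323 and 0.125. With mice per library as a covariate St6galnac2 and Gal3st1 did not pass (adjusted p = 0.057 and 0.109), nor did St6galnac2 on unscaled library totals (0.0548) and Gal3st1 by limma-voom (0.0527). Against normal library 3 alone, the log2 fold changes of St6galnac2 and B4galt4 were -1.87 and 2.66, near those of all libraries, that of Gal3st1 was -2.88 (7.34-fold lower), and those of Fut2 and Gcnt3 were -1.12 and -0.27.

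**Figure D5:**
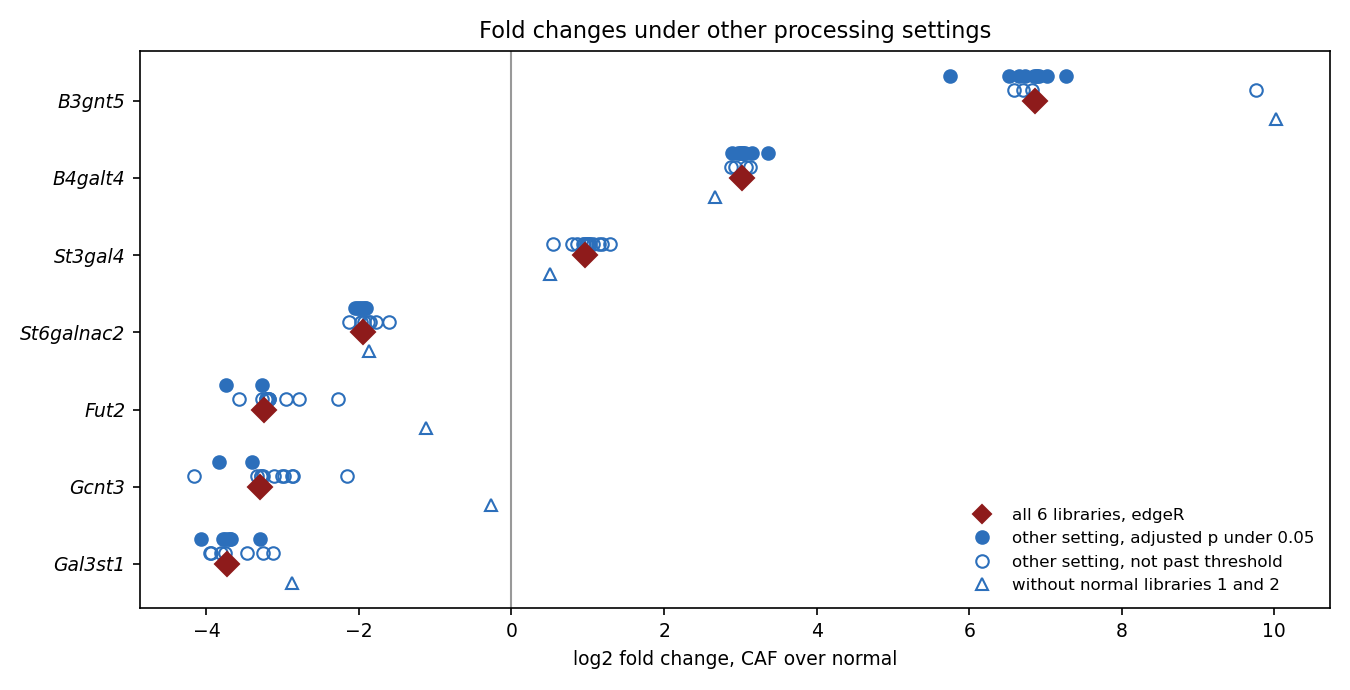
log2 fold change, CAF over normal (horizontal axis), of the 7 tested enzymes with all 6 libraries (diamonds) and under other settings (circles, filled where the adjusted p was under 0.05); triangles are fits without normal libraries 1 and 2. The triangles of Fut2 and Gcnt3, at -1.12 and -0.27, lie far from their diamonds, and those of B4galt4 and St6galnac2, at 2.66 and -1.87, lie near theirs.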

How the data were processed

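RNA 3′ ends of 6 MARS-seq libraries were counted per gene symbol. Build mm10 and the tools cutadapt, STAR, HTSeq and DESeq2 are listed per the submitters' processing notes, without versions or order; the sources used here do not give the annotation, strand use or collapsing of molecular identifiers. Raw counts in the deposited table were the values fitted. Per the file headers it also holds a normalized signal (count over 1 size factor per library, in the values), a regularized log2 value that was not used, and the authors' log2 fold change, p-value and adjusted p-value. Every listed gene reaches 6 counts in 1 library or more. Nothing says that libraries of a group were prepared apart, beyond their separate mice.

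Counts were fitted with edgeR 4.0.16 in R 4.3.3 (filterByExpr, trimmed mean of M-values, glmQLFit and glmQLFTest, group term only), and the fit was tested on simulated counts. Each SE is approximate, derived from the F statistic. Alternatives were DESeq2 1.42.0, limma-voom (limma 3.58.1), other scaling factors, other filters (none, or 10 counts in 3 libraries), mice per library as a covariate, and libraries left out. Text names all 10 genes, of each list the called genes or up to 2 of smallest p, and the 3 genes of highest correlation (log2 CPM, prior count 2). Members and lists were chosen with earlier results of these data known. Positions are RefSeq's on GRCm38.p6, the assembly of mm10.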

Additional observations from a re-analysis of the deposited data

How the results depend on the processing

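Over all genes 112 were called, and 4 of the 10 enzymes and 1 of the other glycan genes with them. DESeq2 called 935, 7 and 11. Limma-voom called 65 genes in all, and without a filter 2 other glycan genes were called. With mice per library as a covariate 2 enzymes were called. With 1 library left out, 0 to 1193 genes, 0 to 7 enzymes and 0 to 17 other glycan genes were called; each of the highest values was without normal library 3, and 0 genes were called without normal library 1. Without normal libraries 1 and 2, where the lone normal library is assumed to vary like the CAF libraries, 0 genes, 0 enzymes and 0 other glycan genes were called by edgeR, and 14 other glycan genes had an unadjusted p under 0.05. Relative log expression and upper-quartile factors left 4 enzymes called, unscaled library totals 3, and library totals put the median log2 fold change of all genes at 0.40, against 0.06 with scaling. The cause of these differences was not tested. The low totals of CAF library 1 and normal libraries 2 and 3 limit what can be seen for C1galt1 and Gcnt1. No paired analysis was possible because the labels give the groups no shared replicate numbers.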

Other observations

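Some other glycan genes, chosen after their values were seen, varied among the normal libraries and were below the filter on low counts or not called. B4galnt3, which makes the LacdiNAc caps of gastric mucins, had 2.93, 1.24 and 2.03 CPM in CAF libraries 1, 2 and 3, against 30.6, 24.1 and 0 CPM in normal libraries 1, 2 and 3, so that normal library 3 again stood with the CAF libraries. A4galt, the globotriaosylceramide synthase, had 107, 40.3 and 34.1 CPM in the CAF libraries and 22.9, 16.5 and 125 CPM in the normal libraries, where normal library 3 was highest (log2 fold change 0.12, adjusted p = 0.97 by edgeR). Chst1, a sulfotransferase of keratan sulfate, had 16.1, 10.4 and 21.1 CPM in the CAF libraries and 21.6, 16.5 and 100.05 CPM in the normal libraries, and was likewise highest in normal library 3.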
